A study of Homo sapiens with 14 samples.

Results

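The proteasome is the protease of the cytosol and nucleus that degrades proteins tagged with ubiquitin. The 48 proteasome genes described here are the rows of the count table whose symbol begins with PSM followed by A to G and a number, together with ADRM1 and POMP, provided that they reached 1 CPM (counts scaled to the size of the library) in 2 libraries. They are 48 of 50 rows that carry such a name and of 56479 rows in all. The other 2, the testis subunit gene PSMA8 and the thymus subunit gene PSMB11, stayed below that limit. By role the 48 comprise 14 core subunits (7 of the alpha ring, 4 structural and 3 catalytic subunits of the beta ring), 3 immune beta subunits, 18 subunits of the regulatory particle (6 ATPases and 12 non-ATPases), 8 assembly factors, 4 activators and 1 inhibitor.

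The core particle is a barrel of stacked alpha and beta rings, and 3 beta subunits, PSMB5, PSMB6 and PSMB7, carry its catalytic sites. The regulatory particle sits on the barrel, binds ubiquitin-tagged proteins, unfolds them with its ATPase ring and feeds them in. Interferon gamma raises the alternative catalytic subunits PSMB8, PSMB9 and PSMB10, which replace PSMB5, PSMB6 and PSMB7 in the immunoproteasome, and the activators PSME1 and PSME2, which cap the barrel in place of the regulatory particle. The immunoproteasome is known for its part in cutting peptides for display on MHC class I molecules.

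RNA had been sequenced from HepG2 and Hep3B, established human liver tumour lines labelled as hepatoblastoma and hepatocellular carcinoma and as wild type. HepG2 cells on culture dishes had been kept for 5 days under 4% PEG, polyethylene glycol 300, which makes the medium hyperosmotic, or in isotonic medium. HepG2 cells on transwells, inserts with a porous membrane, were under a weight or uncompressed. Hep3B cells on transwells were under a weight, in 3% PEG, or uncompressed. Each of these 7 groups holds 2 libraries. The labels call the 2 biological replicates and describe no separate cultures beyond that, so p-values measure the spread between labelled samples. How heavy the weight was, and how long transwell cultures ran, the sources used here do not give.

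The 14 libraries held 21.2 M to 35.4 M counts. The line labels were checked with RB1, a tumour suppressor gene defective in Hep3B, which stood at 2.73 and 2.63 CPM in uncompressed Hep3B and 131 and 123 CPM in uncompressed HepG2. The dish pairs varied far more than the transwell pairs, with a biological coefficient of variation of 0.288 in 4% PEG and 0.319 in isotonic medium, against 0.0459 to 0.0705 on transwells. Differences between dish replicates followed the GC content of transcripts, with Spearman rho across genes of -0.652 in 4% PEG and -0.642 in isotonic medium, where each value describes 1 pair. Unless stated otherwise, tests are edgeR quasi-likelihood tests fitted to all 14 libraries, and "rose", "fell" or "called" means a Benjamini-Hochberg adjusted p under 0.05 over 19232 genes. Changes are log2 fold changes ± standard error, and levels are CPM scaled by TMM. Pseudogene copies of several members exist, and the sources used here do not give how shared reads were counted. In these bulk samples, a smaller share of cells that carry an RNA and less of it per cell cannot be told apart.

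The promoters of the immune subunit PSMB8, its neighbour PSMB9 and the activators PSME1 and PSME2 are shown because these 4 stood lowest in Hep3B relative to HepG2, and that of ADRM1 because it is among the genes that rose in 4% PEG. Each runs from 250 bases before to 50 bases after the transcript start in RefSeq (GRCh38.p14), 5′ to 3′ on the strand of the gene. Capitals mark every match to the interferon-stimulated response core (GAAA, any 2 bases and GAAA), the antioxidant response core TGACNNNGC or the CCAAT box on either strand. The regions are chr6:32843998-32844297 on the minus strand, chr6:32853942-32854241 on the plus strand, chr14:24135944-24136243 on the plus strand, chr14:24146561-24146860 on the minus strand and chr20:62302747-62303046 on the plus strand.
PSMB8: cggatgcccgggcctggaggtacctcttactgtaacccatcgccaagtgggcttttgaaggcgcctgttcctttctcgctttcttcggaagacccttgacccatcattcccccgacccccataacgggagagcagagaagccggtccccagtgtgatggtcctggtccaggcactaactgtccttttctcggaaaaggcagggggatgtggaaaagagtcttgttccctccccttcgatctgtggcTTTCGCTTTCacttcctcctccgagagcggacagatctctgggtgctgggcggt
PSMB9: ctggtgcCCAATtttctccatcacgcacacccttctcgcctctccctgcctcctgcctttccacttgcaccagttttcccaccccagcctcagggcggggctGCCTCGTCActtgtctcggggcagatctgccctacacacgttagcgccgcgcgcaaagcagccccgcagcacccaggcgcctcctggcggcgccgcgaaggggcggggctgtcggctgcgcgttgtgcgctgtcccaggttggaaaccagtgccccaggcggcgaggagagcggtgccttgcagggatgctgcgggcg
PSME1: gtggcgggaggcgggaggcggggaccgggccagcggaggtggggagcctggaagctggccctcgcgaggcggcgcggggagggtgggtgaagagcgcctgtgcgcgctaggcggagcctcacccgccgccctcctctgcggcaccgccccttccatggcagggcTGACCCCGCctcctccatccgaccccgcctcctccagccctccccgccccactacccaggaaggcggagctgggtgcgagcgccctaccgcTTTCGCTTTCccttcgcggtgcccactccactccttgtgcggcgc
PSME2: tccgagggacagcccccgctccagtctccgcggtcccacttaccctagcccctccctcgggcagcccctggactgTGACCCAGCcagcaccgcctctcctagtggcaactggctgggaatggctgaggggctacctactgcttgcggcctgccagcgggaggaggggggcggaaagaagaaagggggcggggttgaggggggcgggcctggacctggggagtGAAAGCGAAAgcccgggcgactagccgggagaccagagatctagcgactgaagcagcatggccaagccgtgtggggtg
ADRM1: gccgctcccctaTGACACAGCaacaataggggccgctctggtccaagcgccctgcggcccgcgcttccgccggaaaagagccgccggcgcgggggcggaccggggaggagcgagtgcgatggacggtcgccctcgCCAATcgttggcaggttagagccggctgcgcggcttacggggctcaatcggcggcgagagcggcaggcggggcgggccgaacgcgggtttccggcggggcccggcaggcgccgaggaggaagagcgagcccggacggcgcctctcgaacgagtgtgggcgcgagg
RefSeq gave 52 such promoters for 42 of the 48 genes. The interferon-stimulated core stood in 7 of the 52 (13.5%), against 3.57% of all 35116 promoters of the same length. Those 7 are promoters of PSMB8, PSMB10, PSME1, PSME2, PSMB4, PSMA4 and PSMG4. In the PSMB8 promoter shown the match begins at -4 from the transcript start. The other RefSeq promoter of PSMB8, not shown, held none of the 3 motifs. None of the 20 promoters of regulatory particle genes held the interferon-stimulated core. The antioxidant core, a sequence bound by the NFE2 family, to which the proteasome gene activator NFE2L1 belongs, stood in 17 of the 52 (32.7%), against 13.3% of all promoters. The CCAAT box stood in 40.4%, against 34.6% of all promoters. Neither RefSeq promoter of PSMD2, the member that rose most in 4% PEG, held any of the 3 motifs. The antioxidant core stood in 9 of 19 promoters of members that rose in 4% PEG. It stood in 1 of 5 of those that fell and 7 of 28 of those not called. Windows of a gene can overlap. Both windows of ADRM1 hold the same antioxidant core, which was counted for each. Whether motifs and changes are related was not tested. A match describes the letters of these windows and says nothing of binding.

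Levels per kilobase of transcript set the standard catalytic subunits far above their immune counterparts in both lines. In uncompressed HepG2, PSMB5, which cuts after hydrophobic residues, averaged 178 ± 3.97 CPM per kb (SD, n = 2) and its counterpart PSMB8 18.0 ± 0.580 CPM per kb. In uncompressed Hep3B they averaged 89.7 ± 4.13 and 0.0778 ± 0.0218 CPM per kb. PSMB9 and PSMB10 were the lowest of the immune genes in HepG2, at 3.65 ± 0.000584 and 1.59 ± 0.0847 CPM per kb in uncompressed cells.

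PSMB8 thus supplied between 7.42% and 12.8% of the length-scaled sum of PSMB8 and PSMB5 in HepG2 libraries, and between 0.0719% and 0.419% in Hep3B libraries. By library, this share was 12.8% and 12.3% in 4% PEG and 8.54% and 7.42% in isotonic medium. On HepG2 transwells it was 9.64% and 10.4% under the weight and 8.85% and 9.49% uncompressed. The 4% PEG libraries were the highest of the 14, and in them PSMB5 was lower while PSMB8 overlapped the isotonic libraries. The most abundant genes per kb were PSME1 (201 ± 8.93 CPM per kb), PSMA7 (191 ± 0.181) and PSMB1 (191 ± 3.10) in uncompressed HepG2, a spread within which neighbours cannot be ordered. In uncompressed Hep3B, PSME3, the nuclear activator, led at 241 ± 5.45 CPM per kb, ahead of PSMB4 at 187 ± 2.46 and PSMB1 at 168 ± 0.996 CPM per kb.

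**Figure D1:**
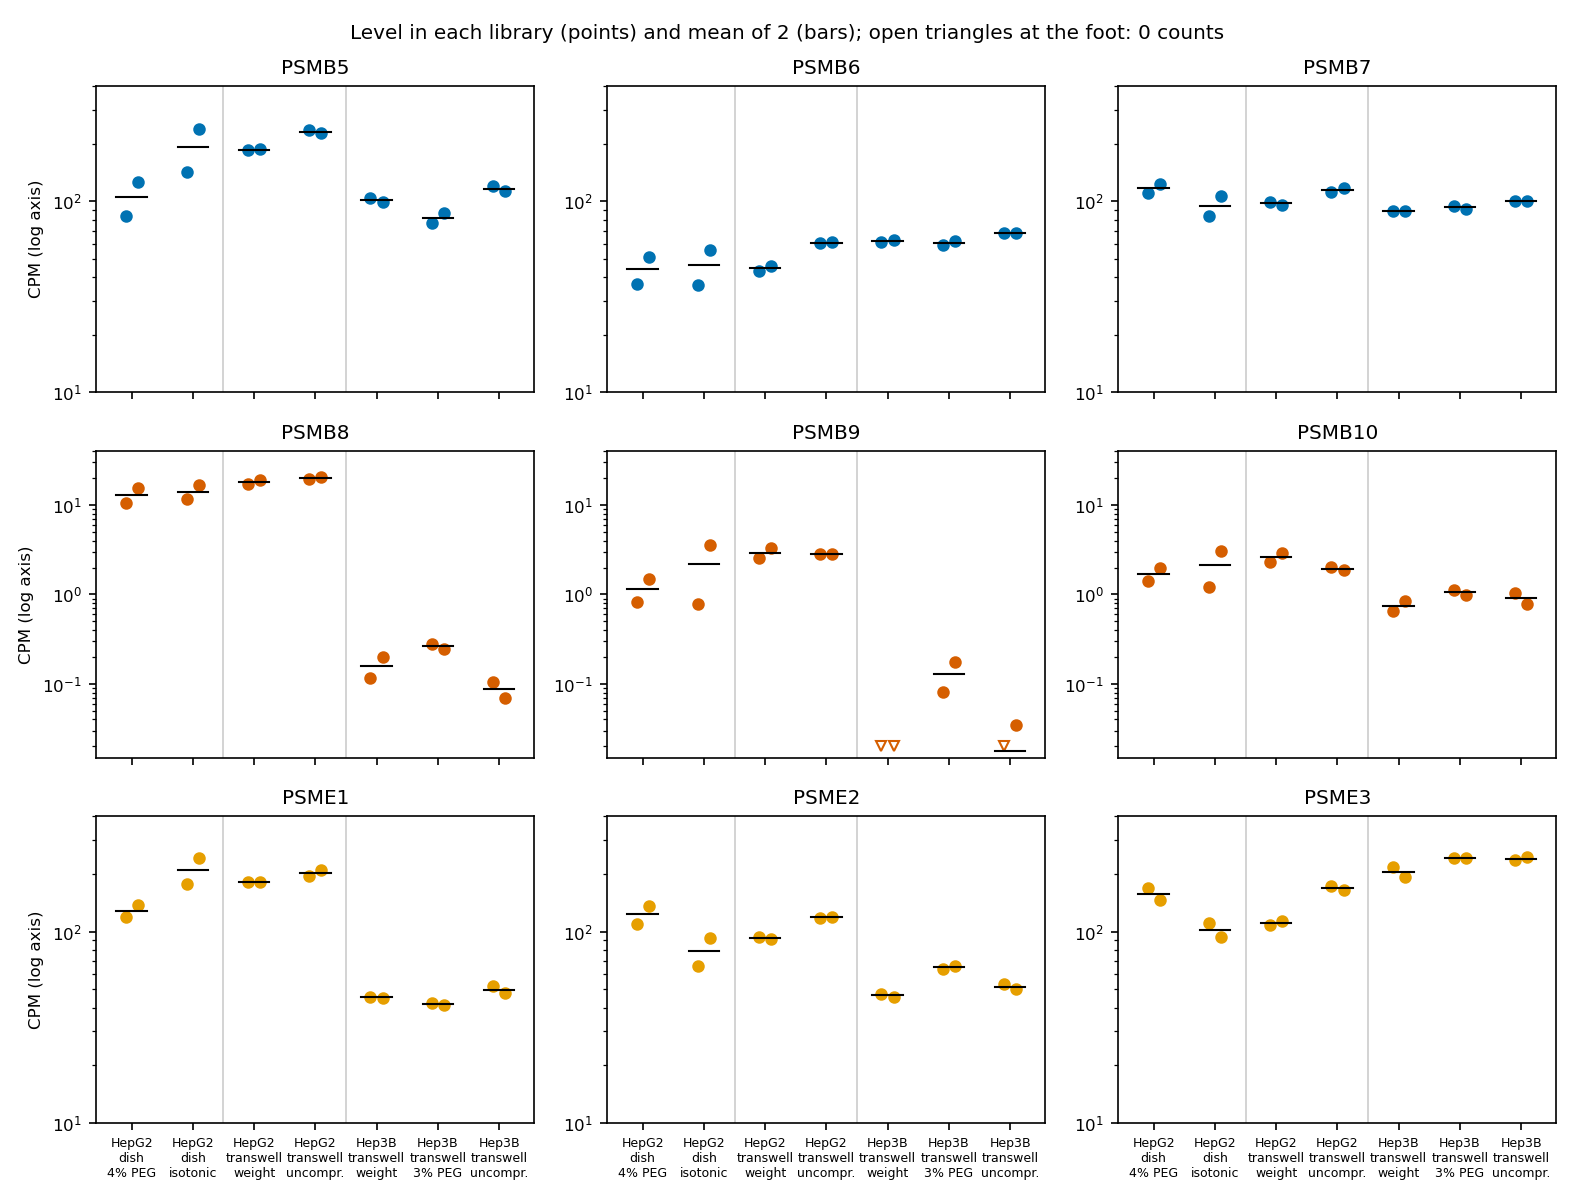
Level in CPM (log axis) of the 3 standard catalytic genes, the 3 immune genes and 3 activators in each of the 14 libraries, by group, with black bars at the mean of 2. PSMB8 is between 10.7 and 20.7 CPM in every HepG2 library and at most 0.282 CPM in every Hep3B library, while PSMB7 stays between 83.8 and 124 CPM throughout.

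In 4% PEG, 11 of the 18 regulatory particle genes rose in HepG2 and 0 fell, with a median change of 0.49. Of the 14 core genes 0 rose and 2 fell, with a median of 0.02, and 0 of the 3 immune genes were called. Both counts depend on the processing. Fitted on the dish libraries alone, 1 of the 18 regulatory genes rose, and 0 core genes rose or fell. The fit of all groups shares its spread with the tighter transwell pairs, so standard errors for the dishes may be too small. Scaled by total counts, 9 core genes rose and 0 fell, beside 14 regulatory genes that rose. Without replicate 2 of isotonic medium 4 core genes rose and 1 fell. Over the 48 genes, 16 rose and 4 fell. That is read against a background of 46.9% of all tested genes called, with 23.9% higher and 23.0% lower. The 20 of 48 are no larger a share than that, and the median change was 0.23, against 0.01 for all tested genes.

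PSMD2, a scaffold of the regulatory particle where ubiquitin shuttles dock, rose most, with 439 and 558 CPM in 4% PEG and 129 and 169 CPM in isotonic medium. Both 4% PEG libraries exceeded all 12 others of the study. The change was 1.74 ± 0.14 (adjusted p = 1.88e-06), and PSMD2 was the 1 member still called when the 4 dish libraries were fitted on their own (adjusted p = 0.0067, edgeR).

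ADRM1, a ubiquitin receptor of the regulatory particle, had 80.6 and 103 CPM in 4% PEG and 33.5 and 53.5 CPM in isotonic medium. The groups did not overlap, and the change was 1.08 ± 0.19 (adjusted p = 5.92e-04 by edgeR, 0.0552 in the dish libraries alone). Other non-ATPase genes that rose were PSMD1 (0.72 ± 0.14), PSMD8 (0.72 ± 0.22), PSMD12 (0.60 ± 0.22), PSMD13 (0.40 ± 0.10) and PSMD11 (0.35 ± 0.10). The libraries of PSMD12 overlapped between the groups, at 213 and 123 CPM in 4% PEG and 131 and 90.8 CPM in isotonic medium. PSMD4, the other main ubiquitin receptor (0.25), and PSMD14, which removes ubiquitin from substrates (0.31), were not called.

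In the ATPase ring PSMC1 (0.77 ± 0.18), PSMC2 (0.75 ± 0.12), PSMC4 (0.64 ± 0.12) and PSMC5 (0.59 ± 0.10) rose, and the values of PSMC3 (-0.20) and PSMC6 (-0.18) did not pass. PSMC2 shows the spread of the ring, with 118 and 96.0 CPM in 4% PEG and 67.5 and 59.6 CPM in isotonic medium. The 12 non-ATPase genes summed to 1821 and 1826 CPM in 4% PEG and 1110.0 and 1151 CPM in isotonic medium, and the 6 ATPase genes to 561 and 497 CPM and 407 and 417 CPM. Neither sum overlapped between the groups. Nor did that of the 7 alpha ring genes of the core, at 694 and 647 CPM in 4% PEG and 607 and 609 CPM in isotonic medium. The sums of the 3 catalytic core genes overlapped, at 232 and 300.5 CPM in 4% PEG and 262 and 401 CPM in isotonic medium.

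**Figure D2:**
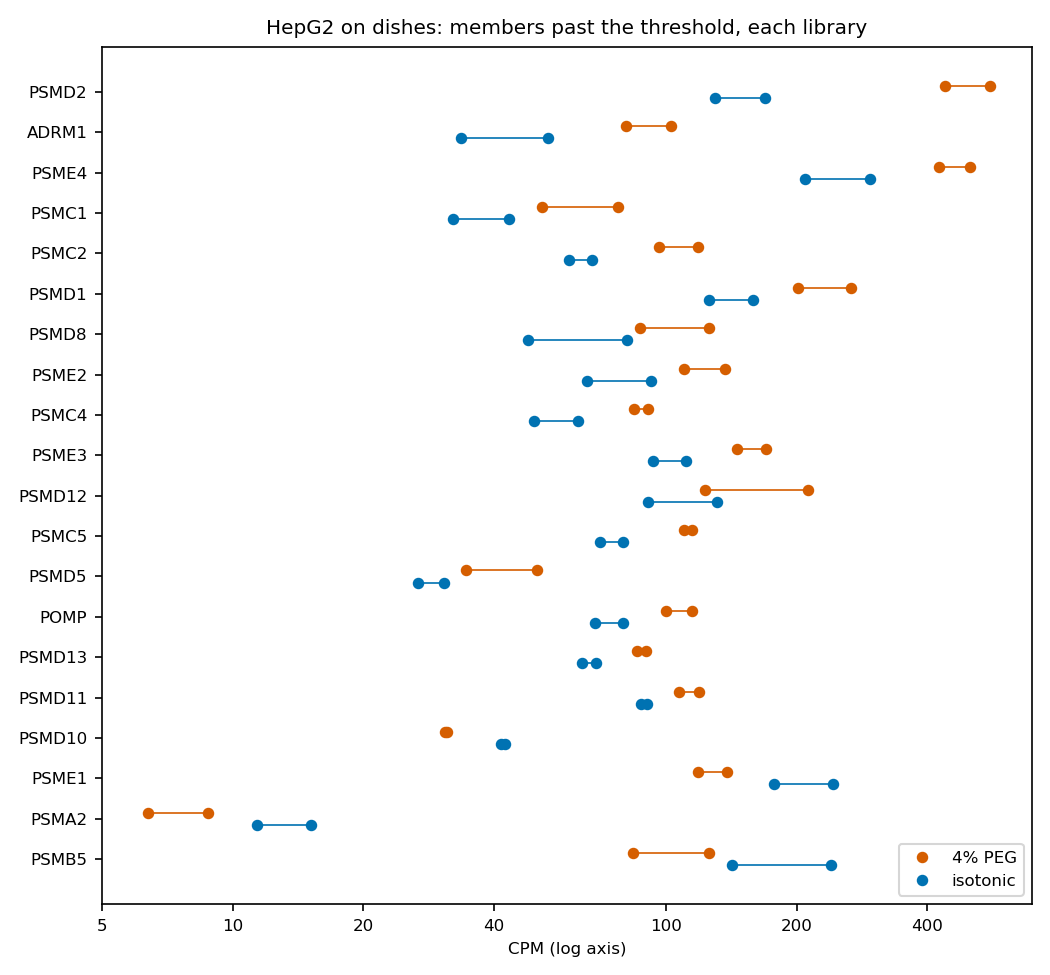
CPM (log axis) in each HepG2 dish library of the 20 genes called between 4% PEG (upper pair of each row) and isotonic medium (lower pair), ordered by fold change. PSMD2 lies at 439 and 558 CPM in 4% PEG, away from its isotonic pair, while the pairs of PSMD12 overlap.

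Among the core genes the falls were those of PSMB5 and of PSMA2, a subunit of the alpha ring. PSMB5 had 83.9 and 126 CPM in 4% PEG and 142 and 239 CPM in isotonic medium, a change of -0.86 ± 0.22 (edgeR adjusted p = 0.00719). PSMA2 had 8.79 and 6.39 CPM in 4% PEG and 15.2 and 11.4 CPM in isotonic medium (-0.81 ± 0.19, edgeR adjusted p = 0.00485). In both genes the groups were apart, although the lower isotonic PSMB5 library stood close to the higher 4% PEG library.

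The other catalytic genes were not called. PSMB6, which cuts after acidic residues, had 36.9 and 51.3 CPM in 4% PEG and 36.6 and 55.6 CPM in isotonic medium, which overlap. PSMB7, which cuts after basic residues, had 111 and 124 CPM in 4% PEG and 83.8 and 106 CPM in isotonic medium, apart but with an edgeR adjusted p of 0.0531. All 3 immune genes overlapped: PSMB8 had 10.7 and 15.3 CPM in 4% PEG and 11.5 and 16.7 CPM in isotonic medium. PSMB9 had 0.826 and 1.50 CPM in 4% PEG and 0.778 and 3.61 CPM in isotonic medium, and PSMB10 had 1.40 and 1.97 CPM and 1.20 and 3.05 CPM. The isotonic libraries of PSMB9 and PSMB10 differed more from each other than the group means did.

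The activators moved apart from one another. PSME4, an activator known from sperm and from DNA repair, had 502 and 425 CPM in 4% PEG and 295 and 209 CPM in isotonic medium and rose by 0.88 ± 0.15. PSME3 had 169.7 and 146 CPM in 4% PEG and 111 and 93.0 CPM in isotonic medium and rose by 0.63 ± 0.12. PSME1 and PSME2, whose products form 1 ring together, went opposite ways. PSME2 rose by 0.64 ± 0.15, with 109.8 and 136 CPM in 4% PEG and 65.8 and 92.2 CPM in isotonic medium. The change of PSME1 was -0.71 ± 0.14, a fall, with 119 and 138 CPM in 4% PEG and 178 and 242 CPM in isotonic medium. None of these 4 genes overlapped between the groups. The groups were apart in 25 of all 48 members, a count read as no result, since its share over all genes is not reported here. The inhibitor PSMF1 was not called (0.08 ± 0.12).

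Of the assembly factors, POMP, the maturation factor of the core particle, had 115 and 100.0 CPM in 4% PEG and 79.7 and 68.5 CPM in isotonic medium and rose by 0.53 ± 0.12. PSMD5, a chaperone of the regulatory base, rose by 0.56 ± 0.16. PSMD10, another base chaperone, also known as the oncoprotein gankyrin, had 31.2 and 30.8 CPM in 4% PEG and 41.5 and 42.5 CPM in isotonic medium, and its change of -0.44 ± 0.11 was called lower. PSMG1 to PSMG4, the chaperones of the alpha ring, were not called, and their changes ran from -0.19 to 0.34.

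The directions in 4% PEG depend on how libraries are scaled. Scaled by total counts alone, 31 members rose and 0 fell. That scaling moves the median of all genes to 0.34, and the 4 falls keep their sign but lose their call. The share of all genes called with total counts is not reported here. Fitted on the 4 dish libraries alone, 1 member was called, PSMD2, where 22.0% of all genes were. Albumin (ALB), the main secreted protein of liver cells, stood at 3263 and 2578 CPM in 4% PEG and 54410.0 and 53840.0 CPM in isotonic medium. The 48 members took 0.531% and 0.535% of all counts in 4% PEG and 0.311% and 0.347% in isotonic medium. The part of the ALB counts in these shares was not tested.

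**Figure D3:**
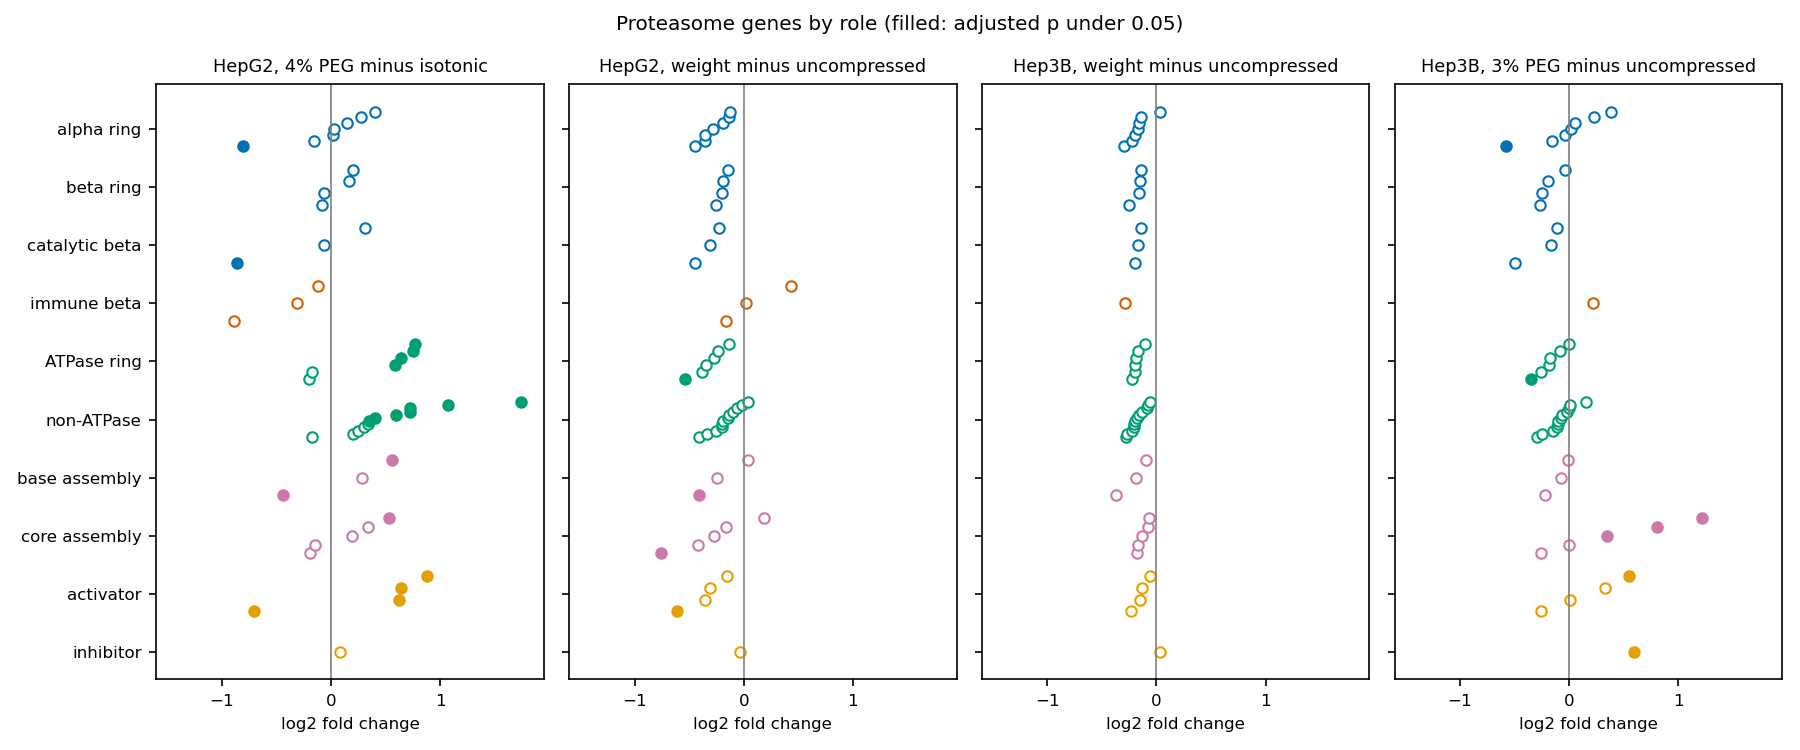
Log2 fold change of each member by role in the 4 compression comparisons, with filled points for an adjusted p under 0.05; PSMB8 and PSMB9 are left out of the Hep3B panels because of their low counts. In 4% PEG the filled regulatory points lie right of 0, up to 1.74 for PSMD2, whereas under the weight nearly all points lie left of 0 in both lines.

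Genes that work beside the proteasome changed in both directions in 4% PEG. Of 20 partners and regulators 5 rose and 5 fell, with a median of -0.03. The members with the smallest p were UFD1 (0.88 ± 0.11), a cofactor of the ubiquitin-dependent unfoldase VCP, ZFAND5 (0.94 ± 0.13), a proteasome activator, and PAAF1 (-0.99 ± 0.14), which binds the ATPases. Of 6 ubiquitin genes and activating enzymes 0 rose and 2 fell, among them RPS27A (-1.01 ± 0.10), which encodes ubiquitin fused to a ribosomal protein. Of 17 genes of antigen presentation and the interferon response 4 rose and 5 fell. Those with the smallest p were ERAP1 (-1.66 ± 0.12), which trims peptides, and the peptide-loading proteins CALR (-1.26 ± 0.10) and PDIA3 (-1.28 ± 0.17).

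Markers of leukocytes and endothelium were measured because such cells carry immune subunits. In 4% PEG 6 of the 7 markers had a count and in isotonic medium 5 of 7. Their summed level was 584 and 513 CPM in 4% PEG and 4637 and 3792 CPM in isotonic medium, nearly all of it LYZ, the lysozyme gene. Without LYZ the sums were 21.8 and 27.4 CPM in 4% PEG and 11.0 and 13.1 CPM in isotonic medium. Of the 5 markers tested 2 rose and 1 fell. PTPRC, the defining leukocyte gene, had 0 counts in all 8 HepG2 libraries. The part of such cells in the member values was not tested.

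Under the weight, HepG2 members were lower by small amounts, of which 4 passed the test. Of the 48 genes 0 rose and 4 fell, against a background of 9.58% of all tested genes called, 5.40% higher and 4.18% lower. The median change was -0.21, against 0 for all genes. As signs alone, 43 of the 48 changes lay below 0, where 49.2% of all genes did. In 41 of the 48 both libraries under the weight were below both uncompressed ones, and 33.5% of all genes were parted that way.

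PSMG1, the alpha ring chaperone, had 35.8 and 36.9 CPM under the weight and 60.6 and 62.1 CPM uncompressed, a change of -0.76 ± 0.16 on the log2 scale (edgeR adjusted p = 0.0132). PSME3 had 108 and 113 CPM under the weight and 173 and 166 CPM uncompressed (-0.61 ± 0.12, edgeR adjusted p = 0.00801). PSMC3, an ATPase, had 70.3 and 71.6 CPM under the weight and 106 and 99.4 CPM uncompressed (-0.53 ± 0.11, edgeR adjusted p = 0.0113). In these 3 genes the pairs were tight and apart. The fourth, PSMD10, had 38.8 and 38.4 CPM under the weight and 53.2 and 49.7 CPM uncompressed (-0.41 ± 0.11).

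The catalytic core genes were lower by amounts that did not pass. PSMB5 had 184 and 188 CPM under the weight and 234 and 227 CPM uncompressed (-0.31). PSMB6 had 43.3 and 45.7 CPM under the weight and 60.4 and 60.8 CPM uncompressed (-0.45), and PSMB7 had 99.1 and 96.0 CPM and 111 and 118 CPM (-0.23). The 3 pairs were apart in each case.

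The immune genes varied in sign. PSMB8 had 17.1 and 19.0 CPM under the weight and 19.8 and 20.7 CPM uncompressed (-0.16), apart and lower like the catalytic genes. PSMB9 had 2.53 and 3.27 CPM under the weight and 2.85 and 2.85 CPM uncompressed, which overlap, and PSMB10, with the higher values under the weight, had 2.28 and 2.94 CPM and 2.01 and 1.86 CPM (0.43). None of the 3 was called.

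The remaining activators and POMP were also below their uncompressed pairs without a call. PSME1 had 181 and 182 CPM under the weight and 196 and 208 CPM uncompressed, and PSME2 had 93.7 and 91.7 CPM and 118 and 119 CPM. PSME4 had 202 and 210.0 CPM under the weight and 251 and 259.5 CPM uncompressed. POMP had 67.9 and 64.8 CPM under the weight and 79.4 and 80.6 CPM uncompressed, apart like all 4 activators.

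The number of calls under the weight follows the libraries in the fit. With the dish libraries left out, 30 members fell and 0 rose, where 19.0% of all genes fell. Leaving out any single HepG2 transwell library from the fit of all groups ended all 4 calls. Neither an immune gene nor PSMF1 was among the 30. They included PSMA2 (-0.41 ± 0.10), PSMB6 (-0.41 ± 0.06), PSMD1 (-0.38 ± 0.05) and PSME2 (-0.32 ± 0.05). Of the partner genes VCP fell (-0.48 ± 0.11), of the antigen presentation genes ERAP1 rose (0.53 ± 0.12), and 0 of 6 ubiquitin genes were called. The 7 leukocyte and endothelial markers summed to 2725 and 2650.0 CPM under the weight and 4852 and 4937 CPM uncompressed, and LYZ fell (-0.87 ± 0.13). Without LYZ they summed to 11.2 and 11.5 CPM under the weight and 8.39 and 8.69 CPM uncompressed. The part of the LYZ fall in these values was not tested.

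**Figure D4:**
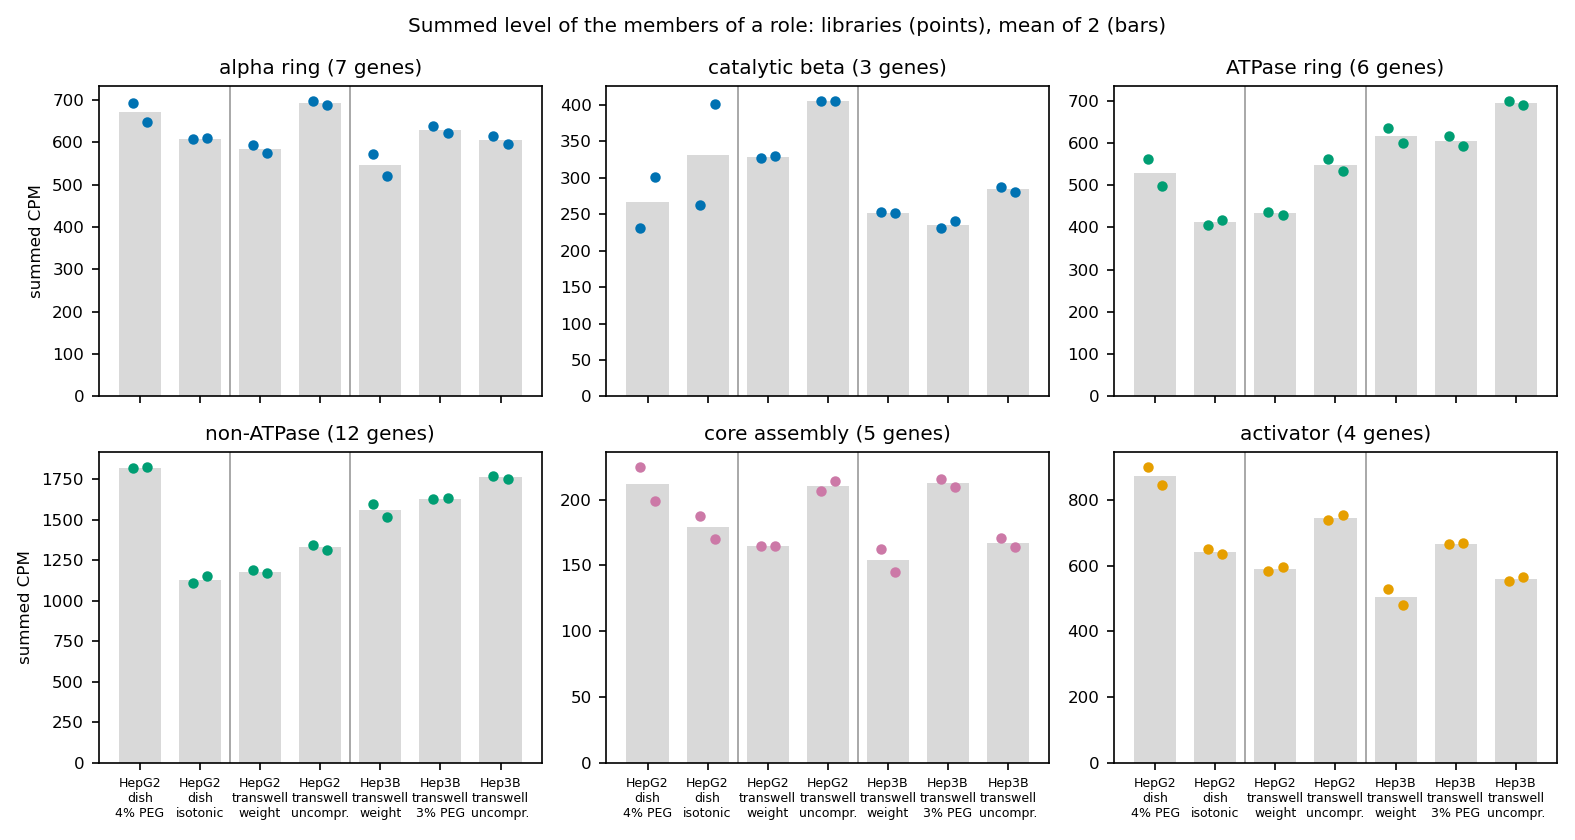
Summed CPM of the genes of 6 roles in each library (points) with the mean of 2 (bars), by group. The non-ATPase sum is 1821 and 1826 CPM in 4% PEG, above both isotonic libraries, and under the weight each sum lies below both uncompressed libraries of its line.

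In Hep3B the weight gave 0 calls among the members, where 1.05% of all tested genes were called. At an unadjusted p under 0.05, edgeR gave 2 of the 48 members and 1618 of all 19232 genes tested. DESeq2 called 0 members. The signs were again one-sided: 45 of 48 changes were below 0, where 52.3% of all genes were, and in 38 the libraries under the weight lay below both uncompressed ones, as did 29.7% of all genes. The median was -0.17, against -0.01 for all genes.

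The sizes were small throughout. PSMB5 had 103 and 99.5 CPM under the weight and 119.8 and 112 CPM uncompressed (-0.19). PSMB6 had 60.8 and 62.8 CPM under the weight and 68.3 and 68.4 CPM uncompressed (-0.14), and PSMB7 had 88.4 and 89.1 CPM and 99.7 and 100.4 CPM (-0.17). All 3 were apart by less than the fit over all groups can resolve. Among the activators, PSME1 had 45.7 and 45.0 CPM under the weight and 51.6 and 47.7 CPM uncompressed, and PSME2 had 47.3 and 45.3 CPM and 53.1 and 50.0 CPM. PSME3 had 217 and 192 CPM under the weight and 236 and 244 CPM uncompressed, while PSME4 had 220.3 and 199 CPM and 212 and 225 CPM, which overlap. POMP had 71.1 and 64.4 CPM under the weight and 76.6 and 71.6 CPM uncompressed, a narrow gap.

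With the dish libraries left out, 13 members fell in Hep3B under the weight and 0 rose, where 6.86% of all genes fell. The largest falls there were PSMD5 (-0.34 ± 0.06, adjusted p = 3.40e-04 by edgeR), PSMA2 (-0.27 ± 0.08) and PSMD8 (-0.25 ± 0.06). Of the 3 lists of other genes, 0 members were called in the fit of all groups. The leukocyte and endothelial markers summed to 18.7 and 15.1 CPM under the weight and 17.8 and 18.1 CPM uncompressed, or 3.73 and 3.23 CPM and 3.91 and 3.72 CPM without LYZ. Among them PECAM1, an endothelial adhesion gene, rose (1.30 ± 0.25), and its part in these values was not tested.

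Whether the weight acted differently on the 2 lines was tested as an interaction. In the fit of all groups 0 members differed, where 1.89% of all genes did, and DESeq2 called 0 members. At an unadjusted p under 0.05, edgeR gave 3 of the 48 members and 2331 of all 19232 genes tested. In the fit of transwell libraries 10 of 48 differed, where 22.4% of all genes did, which is no larger a share. The PSMG1 change was -0.04 ± 0.09 in Hep3B and -0.72 ± 0.09 in HepG2, a difference of 0.68 ± 0.13 (adjusted p = 7.84e-04, edgeR). PSME3 (0.38 ± 0.08) and PSMC3 (0.36 ± 0.08) differed the same way, with the larger fall in HepG2, and ADRM1 the other way (-0.26 ± 0.08).

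**Figure D5:**
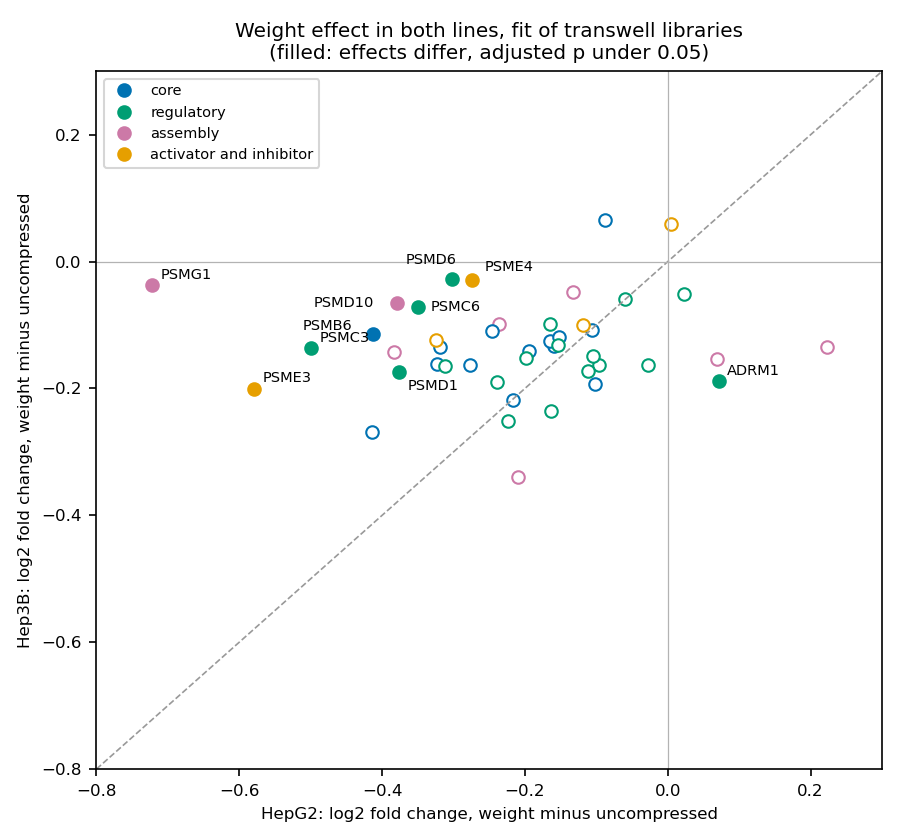
Log2 fold change under the weight in HepG2 (x axis) and Hep3B (y axis) for the 45 members other than the immune genes, from the fit of the 10 transwell libraries, with filled and named points where the 2 lines differ at an adjusted p under 0.05. Most points lie below 0 on both axes, and PSMG1 lies farthest from the dashed line of equal change, at -0.72 in HepG2.

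In 3% PEG, 3 of the 8 assembly factors rose in Hep3B, with a median change of -0.01 over the 8. The bulk of the core and regulatory genes was not called. Of the 48 members 5 rose and 2 fell, against a background of 22.5% of all tested genes, 11.0% higher and 11.5% lower, and the 7 of 48 are no larger a share than that. The rises were 3 of the 5 core assembly factors, the activator PSME4 and the inhibitor PSMF1. The uncompressed Hep3B libraries serve this comparison and that of the weight, so the values are given side by side without a test of likeness.

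PSMG1 had 73.8 and 63.7 CPM in 3% PEG and 30.0 and 29.2 CPM uncompressed, a rise of 1.21 ± 0.16 (edgeR adjusted p = 3.18e-04). PSMG4, a partner chaperone of the alpha ring, had 10.3 and 9.75 CPM in 3% PEG and 5.31 and 6.17 CPM uncompressed (0.81 ± 0.18, edgeR adjusted p = 0.0068). PSMG2, which pairs with PSMG1 in 1 complex, had 34.8 and 33.2 CPM in 3% PEG and 26.6 and 26.9 CPM uncompressed (0.35 ± 0.11). All 3 were apart between the groups, as were 35 of all 48 members, called or not. How many of all genes were apart in 3% PEG is not reported here. PSMG1 was the only rise called under every alternative processing. PSMG2 lost its call with RLE size factors and without the low-count filter. The other 2 core assembly factors were not called, PSMG3 at -0.26 and POMP with 71.2 and 76.3 CPM in 3% PEG and 76.6 and 71.6 CPM uncompressed, which overlap.

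PSMF1, an inhibitor of the core particle, had 147 and 150.4 CPM in 3% PEG and 96.6 and 101 CPM uncompressed (0.59 ± 0.12, edgeR adjusted p = 0.00367). PSME4 had 317 and 319.5 CPM in 3% PEG and 212 and 225 CPM uncompressed (0.54 ± 0.15). Both were apart from the uncompressed pair. PSME2 had 63.9 and 65.8 CPM in 3% PEG and 53.1 and 50.0 CPM uncompressed (0.33), and PSME1 had 42.0 and 41.2 CPM and 51.6 and 47.7 CPM (-0.25). Neither was called, nor was PSME3, with 242 and 242 CPM in 3% PEG and 236 and 244 CPM uncompressed.

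The falls were those of PSMA2 and PSMC3. PSMA2 had 22.5 and 19.1 CPM in 3% PEG and 30.6 and 31.3 CPM uncompressed (-0.58 ± 0.19, edgeR adjusted p = 0.0455). PSMC3 had 129.5 and 123 CPM in 3% PEG and 162 and 160.2 CPM uncompressed (-0.35 ± 0.11, edgeR adjusted p = 0.0399). PSMB5 had 77.2 and 86.9 CPM in 3% PEG and 119.8 and 112 CPM uncompressed, apart but not called (-0.50). PSMB6 had 59.2 and 62.1 CPM in 3% PEG and 68.3 and 68.4 CPM uncompressed, and PSMB7 had 94.0 and 91.5 CPM and 99.7 and 100.4 CPM.

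PSMB8 and PSMB9 stayed near the detection limit in Hep3B, while PSMB10 had 38 to 56 counts per group. PSMB8 had 0.282 and 0.247 CPM in 3% PEG, 0.115 and 0.199 CPM under the weight and 0.105 and 0.0702 CPM uncompressed. The 3% PEG libraries were the highest of the 6, with an adjusted p of 0.0854 against uncompressed by edgeR. PSMB9 had 7 counts in 3% PEG and 1 uncompressed, a ratio of 7.52 with an exact 95% interval of 0.967 to 339 that covers counting error only, and 0 counts under the weight. PSMB10 had 1.13 and 0.989 CPM in 3% PEG, 0.654 and 0.837 CPM under the weight and 1.05 and 0.772 CPM uncompressed, which overlap in part.

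With the dish libraries left out, 25 members were called in 3% PEG, 10 higher and 15 lower, where 52.6% of all genes were called. PSMB5 (-0.47 ± 0.06) was then among the falls and PSME2 (0.36 ± 0.06) among the rises. PSMB8, not called in the fit of all groups, was among these rises as well (1.57 ± 0.63, edgeR adjusted p = 0.0409), at levels of at most 0.282 CPM. Leaving out any single Hep3B library of the comparison from the fit of all groups left 1 to 3 calls, none of them a fall. Of 20 partners and regulators 6 rose and 4 fell, led by ECPAS (1.06 ± 0.12), a scaffold that binds the proteasome, VCP (-0.56 ± 0.11) and UFD1 (-0.52 ± 0.11). Of the 17 antigen presentation and interferon genes 4 rose and 1 fell, with IRF1, an interferon-induced transcription factor (1.85 ± 0.23), CALR (-0.75 ± 0.10) and ERAP2 (1.28 ± 0.21) at the smallest p. Of the ubiquitin genes UBA1, the main activating enzyme, fell (-0.68 ± 0.23). The leukocyte and endothelial markers summed to 6.97 and 7.06 CPM in 3% PEG and 17.8 and 18.1 CPM uncompressed, or 3.30 and 3.11 CPM and 3.91 and 3.72 CPM without LYZ, and their part in these values was not tested.

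Set directly against each other in Hep3B, the weight and 3% PEG differed in 6 members, all lower under the weight, where 23.1% of all tested genes were called. PSMG1 had 31.9 and 24.6 CPM under the weight and 73.8 and 63.7 CPM in 3% PEG (-1.28 ± 0.16, edgeR adjusted p = 2.23e-04). PSMG4 had 5.61 and 4.62 CPM under the weight and 10.3 and 9.75 CPM in 3% PEG (-0.97 ± 0.18), and PSME4 had 220.3 and 199 CPM and 317 and 319.5 CPM (-0.60 ± 0.15). The other 3 were PSMF1 (-0.56 ± 0.12), PSME2 (-0.49 ± 0.15) and PSMG2 (-0.42 ± 0.11). In all 6 the groups were apart, as they were in 39 of all 48 members, called or not. For all genes that share is not reported here. Leaving out 1 of the 4 libraries left 2 to 4 calls, and without the dish libraries 24 members differed, 20 of them lower, where 52.1% of all genes were called. PSMB9 was among the lower ones, on 0 counts under the weight and 7 in 3% PEG. Of the partner genes 2 were higher and 7 lower, with ECPAS (-1.16 ± 0.12), ZFAND5 (-0.69 ± 0.13) and NFE2L1 (-0.58 ± 0.13) at the smallest p.

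Between the lines, both uncompressed on transwells, the immune subunits and the activators PSME1 and PSME2 were lower in Hep3B, by most in PSMB8 and PSMB9, while most called regulatory genes were higher. Of the 48 members 14 were higher in Hep3B and 16 lower, against a background of 54.7% of all tested genes called, 27.6% higher and 27.1% lower, and the 30 of 48 are a share near that. All 3 immune genes were lower, but PSMB8 and PSMB9 had passed the 1 CPM limit only through HepG2 libraries, so their place here follows in part from that choice. Of the 14 core genes 5 were lower and 3 higher. Of the 18 regulatory genes 8 were higher and 1, PSMD7, was lower. These values share their libraries with the comparisons of the weight and of 3% PEG.

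PSMB8 (ENSG00000204264, chromosome 6, 32840717 to 32844703 on GRCh38) had 0.105 and 0.0702 CPM in Hep3B and 19.8 and 20.7 CPM in HepG2. The change was -7.78 ± 0.37 (edgeR adjusted p = 1.24e-08). It rests on 5 counts in Hep3B and 943 in HepG2, and at so few counts this standard error may be too small. PSMB9 (chromosome 6, 32844136 to 32859585) had 1 count in Hep3B and 133 in HepG2, a ratio of 0.00613 with an exact 95% interval of 0.000154 to 0.0348 that covers counting error only. PSMB10 had 1.05 and 0.772 CPM in Hep3B and 2.01 and 1.86 CPM in HepG2 (-1.08 ± 0.41), a call that ended when any 1 of the 4 libraries was left out. PSMB8 and PSMB9 passed the 1 CPM limit only through HepG2 libraries, 8 and 6 of them, so that they differ between the lines follows in part from how members were chosen.

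PSMB8 and PSMB9 overlap head to head on opposite strands, and PSMB9 also overlaps PSMB8-AS1 and TAP1 in GENCODE 29. The sources used here do not give whether counting used strand, so reads of the overlap cannot be told apart. TAP1, the peptide transporter, named here after its value was seen because of that overlap, was at 2.73 and 2.39 CPM in Hep3B and 27.7 and 29.7 CPM in HepG2 (-3.49 ± 0.39).

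The activators PSME1 and PSME2, next to each other on chromosome 14, were lower in Hep3B. PSME1 had 51.6 and 47.7 CPM in Hep3B and 196 and 208 CPM in HepG2 (-2.03 ± 0.14, edgeR adjusted p = 3.02e-07). PSME2 had 53.1 and 50.0 CPM in Hep3B and 118 and 119 CPM in HepG2 (-1.20 ± 0.15). PSME3 went the other way, with 236 and 244 CPM in Hep3B and 173 and 166 CPM in HepG2 (0.50 ± 0.12), and PSME4 was not called (-0.23). The inhibitor PSMF1 had 96.6 and 101 CPM in Hep3B and 213 and 199.6 CPM in HepG2 (-1.06 ± 0.12).

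Of the standard catalytic genes PSMB5 was lower in Hep3B, with 119.8 and 112 CPM against 234 and 227 CPM in HepG2 (-0.99 ± 0.22, edgeR adjusted p = 0.00258). PSMB6 had 68.3 and 68.4 CPM in Hep3B and 60.4 and 60.8 CPM in HepG2, and PSMB7 had 99.7 and 100.4 CPM and 111 and 118 CPM. Neither was called. In the alpha ring PSMA2 (0.94 ± 0.19) and PSMA4 (0.65 ± 0.15) were higher in Hep3B and PSMA1, PSMA5, PSMA6 and PSMA7 lower, down to -0.94 for PSMA6.

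The largest rises were PSMG3, a chaperone of the alpha ring, PSMD5 and PSMD13. PSMG3 had 32.5 and 29.9 CPM in Hep3B and 10.1 and 10.8 CPM in HepG2 (1.58 ± 0.18, edgeR adjusted p = 1.38e-05). PSMD5 had 73.0 and 78.5 CPM in Hep3B and 35.2 and 35.5 CPM in HepG2 (1.10 ± 0.16), and PSMD13, a subunit of the regulatory lid, had 132 and 127 CPM and 64.7 and 65.0 CPM (1.00 ± 0.10). PSMD2 had 375 and 364 CPM in Hep3B and 201 and 195 CPM in HepG2 (0.90 ± 0.14). The pairs were apart in all 4 genes, as they were in 45 of all 48 members, where the share of all genes is not reported here. Among the other assembly factors PSMG1 (-1.05 ± 0.16), PSMG2 (-0.90 ± 0.11), PSMG4 (-0.59 ± 0.18) and PSMD10 (-0.65 ± 0.11) were lower in Hep3B, and POMP, with 76.6 and 71.6 CPM in Hep3B and 79.4 and 80.6 CPM in HepG2, was not called.

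Scaled by total counts, which moves the median of all genes to 0.33, the split was 22 higher and 11 lower in Hep3B. PSMB10, PSMA1, PSMA7, PSMD7 and PSMG4 then lost their call. For all genes the split with total counts is not reported here. Without the dish libraries, 43 members differed, 22 higher and 21 lower, where 74.0% of all genes were called.

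Genes of antigen presentation and the interferon response were lower in Hep3B as well, 11 of 17, with 1 higher. The smallest p belonged to ERAP2 (-6.25 ± 0.19), NLRC5, the transactivator of MHC class I genes (-6.57 ± 0.53), and ERAP1 (-1.25 ± 0.12). NLRC5 had 4 counts in Hep3B, so its standard error may be too small. Of 20 partners and regulators 6 were higher and 6 lower, led by UFD1 (1.45 ± 0.11), ECPAS (-1.07 ± 0.12) and PAAF1 (-1.24 ± 0.14), and of the ubiquitin genes UBA6 was higher (0.60 ± 0.17) and RPS27A (-0.87 ± 0.10) lower. The leukocyte and endothelial markers summed to 17.8 and 18.1 CPM in Hep3B and 4852 and 4937 CPM in HepG2, or 3.91 and 3.72 CPM and 8.39 and 8.69 CPM without LYZ. Of the 5 markers tested, 0 were higher in Hep3B and 4 lower, with a median change of -2.62. PTPRC had 0 counts in HepG2. CD3E, the T cell receptor component, had 0 in the uncompressed libraries of both lines. Of the 7 markers, 6 had a count in each uncompressed Hep3B library and 5 in each uncompressed HepG2 library. The part of such cells in the immune subunit values was not tested.

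The pattern of PSMB8 over the 7 group means was most like that of AKR1B1 (Pearson r = 0.998 on log2 CPM), PAX8 (0.998) and CFAP74 (0.998). The 7 means fall into 4 of HepG2 and 3 of Hep3B, and 1112 genes reached 0.95, so the likeness describes the split between the lines.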

How the data were processed

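Total RNA of HepG2 and Hep3B cultures had been extracted with an RNeasy kit and read as paired ends on Illumina instruments, per the labels' protocols. The deposited table holds raw counts per gene, 1 column per library, as whole numbers that were not normalised. Whole numbers do not tell whether sequencing runs were pooled. STAR, DESeq2 and GRCh38 (hg38) appear in the submitters' processing notes, with neither version nor role. The sources used here do not give the counting tool, its strand setting or its annotation. Groups follow the titles of the samples. Hep3B columns headed "Control" were read as uncompressed, since that Hep3B group alone has no columns under its own name. Rows without a gene name, 15420 of 56479, were kept under their gene IDs.

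Counts were tested in edgeR 4.0.16 (R 4.3.3). filterByExpr with a minimum count of 10 kept 19232 genes, among them all 48 members. After TMM scaling, a quasi-likelihood model with robust estimation had 1 mean for each of 7 groups and 7 residual degrees of freedom. P-values were adjusted over all genes by Benjamini-Hochberg, and the standard error is the log2 fold change over the root of its F statistic. Such an error may be too small where a group holds few counts. Levels per kb use the APPRIS principal transcript of GENCODE 29, in which every gene ID was found. Motifs were searched on both strands of RefSeq promoters. The model was tested on simulated data: in 1 of 5 comparisons its recovery of 4-fold changes fell short of the minimum first set for this check, and that minimum was then lowered.

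The members, roles, gene lists and comparisons were chosen with earlier results of these data known. Any member could be named. Full values are given for catalytic, immune, PSME and POMP genes and, per comparison, for the 3 largest rises and falls, and other lists give up to 3 members of smallest p. Alternatives were RLE size factors, total counts, no filter or 5 CPM in 2 libraries, the compared groups alone, a replicate block, DESeq2 1.42.0 and leaving out each library. Fits of transwell libraries only and of dish libraries with a replicate block were chosen after seeing the data. Protein sequences were not used here, and some members of the ubiquitin gene list are not reported by name here.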

Additional observations from a re-analysis of the deposited data

How the results depend on the processing

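Counts of called members (adjusted p under 0.05) moved most with the libraries that set the spread. Fitted on the compared groups alone, calls numbered 1 for 4% PEG, 29 for the weight in HepG2, 10 for the weight in Hep3B, 25 for 3% PEG, 20 for the weight against 3% PEG and 8 for the interaction. With the 10 transwell libraries only, chosen after the data had been seen, they numbered 30, 13, 25, 24 and 10 for the last 5 of these. Total counts alone gave 31 for 4% PEG and 9 for the weight against 3% PEG. Leaving out 1 library gave 19 to 25 for 4% PEG, 0 to 0 for the weight in HepG2, 1 to 3 for 3% PEG, 2 to 4 for the weight against 3% PEG and 25 to 27 between the lines. The remaining library of a group is then assumed to vary like the other groups. No called member reversed, and PSMD2 in 4% PEG was called under every alternative. Other causes of these moves were not tested. Apart from the transwell and dish fits, whose shares are given above, the shares of all genes called under these alternatives are not reported here. The counts thus describe the processing and not the members.

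The labels do not pair libraries, and each comparison has only 2 pairs of numbers. Replicate deviations correlated across genes at 0.633 on dishes and between -0.0777 and 0.0732 on transwells. With a replicate block the counts were 22 for 4% PEG, 6 and 0 for the weight in HepG2 and Hep3B, 8 for 3% PEG, 31 between the lines, 8 for the weight against 3% PEG and 0 for the interaction. The block in the dish libraries alone gave 26, of which 20 were also called in the fit of all groups without a block. In it 13 of 18 regulatory genes rose, 3 core genes rose (PSMA3, PSMA7 and PSMB7), 2 core genes fell and the immune gene PSMB9 fell. That fit leaves few residual degrees of freedom. Shares of all genes called with a block are not reported here, so these counts describe the processing and not the members.

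At these depths PSMB9 in Hep3B rests on 0 to 7 counts per group, and 2 libraries per group limit every standard error.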
